A study of Mus musculus with 2 samples.

Results

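The Wnt ligands, receptors and modulators of the mouse were described by the accessibility of their chromatin in embryonic midbrain, as read by DNase-seq, in which the enzyme DNase I cuts open DNA and the cut sites are sequenced. Members were the GENCODE vM21 protein-coding genes of the Wnt (without Wnt1), Fzd, Sfrp, Dkk and Rspo families, together with Lrp5, Lrp6, Lef1, Tcf7, Tcf7l1, Tcf7l2, Axin1, Axin2, Ctnnb1, Apc, Wif1, Frzb, Lgr4, Lgr5 and Lgr6. They numbered 55 of 21668 protein-coding genes on chromosomes 1 to 19 and X, and lay on 17 chromosomes. The series held 1 group of 2 biological replicates of whole midbrain tissue from B6NCrl embryos at 11.5 days, with male and female embryos pooled and no mutant allele, treatment, input or other tissue. The sequencing instruments differed between the replicates, with a NextSeq model used for replicate 1 only, so instrument and replicate cannot be told apart. With 1 group no contrast between conditions exists, and members are set beside all protein-coding genes as a description, with no test.

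Wnt proteins are secreted lipid-modified ligands that bind Frizzled receptors and, on the canonical branch, the LRP coreceptors. Binding disables the cytoplasmic complex of Axin and Apc that otherwise marks β-catenin, the product of Ctnnb1, for destruction, and β-catenin then acts in the nucleus with the TCF and LEF factors. R-spondins and their Lgr receptors keep Frizzled receptors at the cell surface, while the Dkk, Sfrp, Wif1 and Frzb proteins restrain the pathway outside the cell. In the embryonic midbrain, Wnt signalling is known for patterning the isthmus and the roof plate and for the growth of progenitors, including those of dopamine neurons.

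A peak is a 150 bp interval of high cleavage that the authors called in 1 replicate, and its deposited signal is the authors' own value, a whole number with no stated normalization. Replicate 1 had 305818 usable peaks with a median signal of 18, and replicate 2 had 454408 with a median of 8. Hotspots, the wider open stretches the authors called, had a median width of 214 bp in replicate 1 and 201 bp in replicate 2. Read depth is unknown, and no counting interval is given. Start-site peaks in both replicates were present at 5 of 6 midbrain markers (Lmx1b had none in replicate 1), 4 of 4 neural progenitor and 4 of 4 neuron markers, 2 of 2 forebrain and 3 of 3 hindbrain regulators. Other cell types gave 2 of 4 mesenchyme markers, with Col1a1 and Col3a1 lacking a peak, 1 of 4 endothelial markers, Kdr, and 0 of 4 blood markers. Their part in the member values was not tested. In whole tissue, a site open in fewer cells and a site cut less often per cell cannot be told apart.

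Most Wnt pathway genes had an open start. Peaks of both replicates were found no more than 500 bp from a transcription start site (TSS) at 50 of 55 members, 90.9%, while the same held for 65.5% of all protein-coding genes. In single replicates the count was 51 members (92.7%) in replicate 1, where all genes gave 68%, and 53 members (96.4%) in replicate 2, where all genes gave 69.5%. The member share averaged 94.5% ± 2.57 and the share of all genes 68.7% ± 1.05 (SD, n = 2 replicates each). The 5 members outside the count were 4 ligands (Wnt3a, Wnt8a, Wnt8b and Wnt10a) and the inhibitor Dkk4.

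Members differed from the average gene in the CpG content of their starts, a property tied to open promoters throughout the genome. The ratio of observed to expected CpG within 500 bp of the gene's 5′ end had a median of 0.748 in members and 0.558 in all genes. Among members with a ratio of at least 0.6, 41 of 42 (97.6%) had a peak in both replicates, beside 97.3% of all such genes. Among members under that ratio, 9 of 13 (69.2%) did, beside 38.1% of all such genes. The high share of open starts in the pathway was thus close to that of other CpG-rich genes, and stood further from other genes in the small CpG-poor group. The CpG-poor groups were not matched, with a median ratio of 0.425 in members and 0.238 in all such genes. The 9 open members also included Ctnnb1, whose ratio of 0.401 was taken upstream of its protein-coding starts. Of the 5 members without a peak in both replicates, Wnt3a alone had a CpG ratio over 0.6, at 0.748. The other 4 were at 0.254 for Wnt8a, 0.306 for Dkk4, 0.326 for Wnt8b and 0.394 for Wnt10a.

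How strong the start peaks were is described by the signal of the strongest peak within 500 bp of any TSS of the gene, 0 where there was none. The median was 85 in replicate 1 and 60 in replicate 2 for members, and 82 and 53 in the same replicates for all genes. As a percentile among all genes of a replicate, averaged over both replicates, the member median was 53.3 and that of all genes 50.7. Only 3 of 55 members (5.45%) exceeded the 90th percentile, Fzd2, Axin1 and Axin2, while 7.27% of all genes did. Among genes with a CpG ratio of at least 0.6, members had medians of 90 and 63.5 in replicates 1 and 2, and all genes 119 and 75. Thus the CpG-rich starts of the pathway were open about as often as other CpG-rich starts, with lower peak signals in both replicates. The order of members was alike in both replicates, with Spearman's rho of 0.913 across the 55 genes, which share a library within a replicate. Signals were not compared between the replicates, because their scales differ, as the medians of all genes show.

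**Figure D1:**
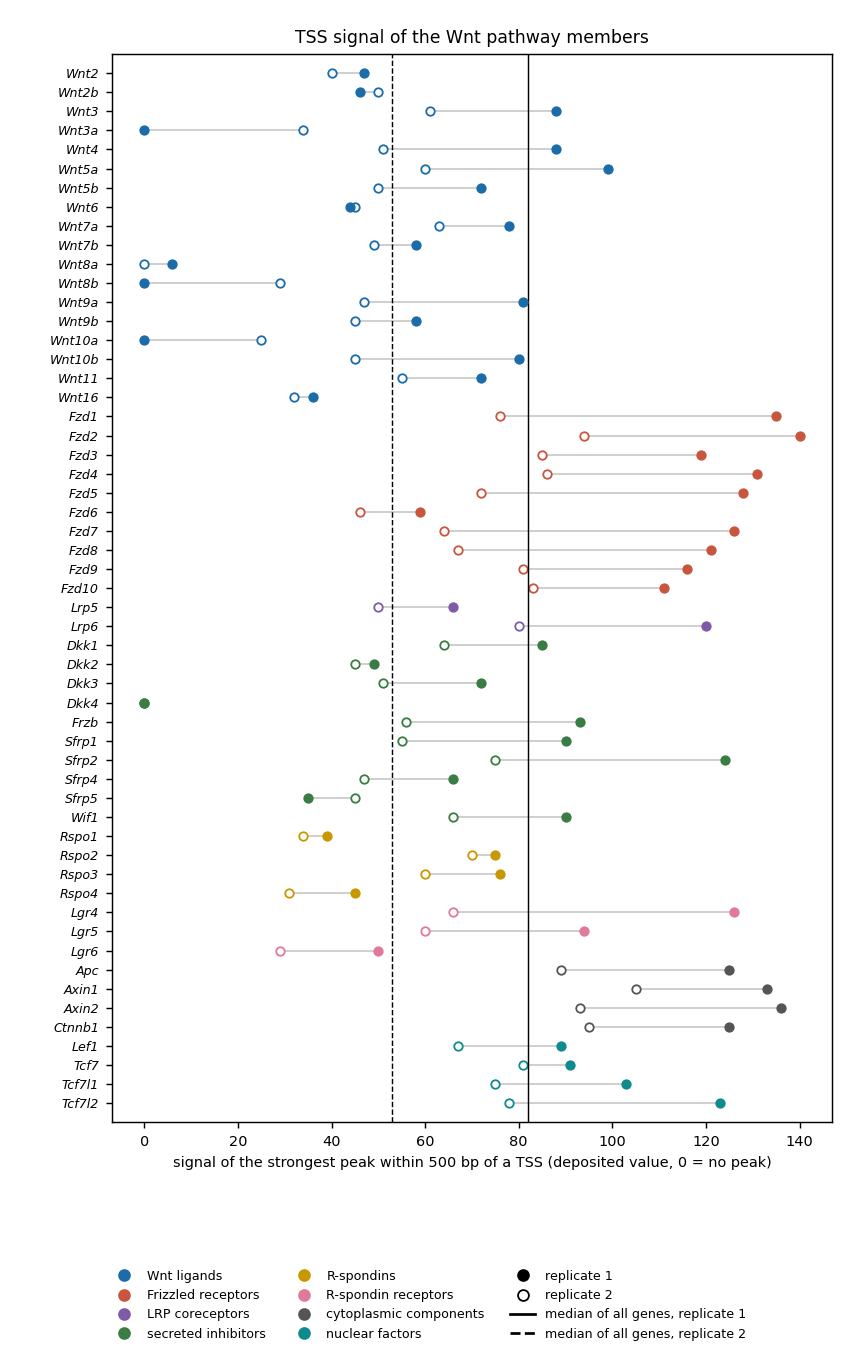
Signal of the strongest peak within 500 bp of a TSS (horizontal axis, deposited value with no stated unit, 0 where there was no peak) for each of the 55 members, coloured by role. Filled points are replicate 1 and open points replicate 2, and the vertical lines mark the medians of all genes, 82 in replicate 1 (solid) and 53 in replicate 2 (dashed). The Frizzled receptors other than Fzd6 and the 4 cytoplasmic components lie to the right of both lines in replicate 1, while 15 of the 18 ligands lie left of the solid line.

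Roles in the pathway differed in median start signal, while the ranges of many roles overlapped. The cytoplasmic components had a median percentile of 92.5, the Frizzled receptors 76.9, the nuclear factors 67.3, the LRP coreceptors 62.1, the R-spondin receptors 55.3, the secreted inhibitors 49.9, the R-spondins 45.5 and the Wnt ligands 44.5. Cytoplasmic components ran from 86.6 to 96.0 and the ligands from 23.8 to 56.5, so this pair of roles did not overlap. Frizzled receptors ran from 44.2 to 97.9 and secreted inhibitors from 15.6 to 76.7. These ranges overlapped with each other and with that of the ligands. All roles other than the ligands and the inhibitors had a peak in both replicates at every member, while 14 of 18 ligands and 9 of 10 inhibitors did. By median, receptors, cytoplasmic components and nuclear factors thus had stronger start peaks than the secreted ligands, R-spondins and inhibitors. The median CpG ratio was 0.966 for LRP coreceptors, 0.847 for nuclear factors, 0.843 for cytoplasmic components and 0.826 for Frizzled receptors. It was 0.696 for ligands, 0.69 for R-spondins, 0.689 for R-spondin receptors and 0.554 for inhibitors. The part of CpG content in the order of roles was not tested.

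**Figure D2:**
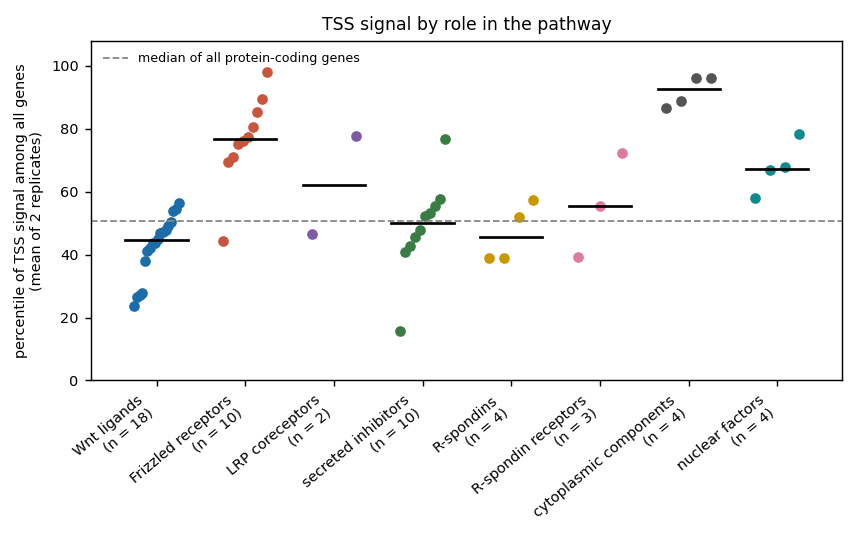
Percentile of the start signal among all 21668 protein-coding genes (vertical axis, mean of 2 replicates) for each member, grouped by role. Points are genes, black bars are role medians and the dashed line is the median of all genes at 50.7. The 4 cytoplasmic components lie between 86.6 and 96.0, above all 18 ligands, which lie between 23.8 and 56.5.

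Among the ligands, Wnt5a (chr14:28504750-28527448, plus strand), which acts mainly on the β-catenin-independent branch, had the highest mean percentile at its start, with a signal of 99 in replicate 1 and 60 in replicate 2. Wnt3, needed for the primitive streak, followed with 88 and 61 in the same replicates, and Wnt7a, a ligand of neural progenitors that also guides brain vessels, with 78 and 63. In replicate 2 alone, Wnt7a and Wnt3 were above Wnt5a. These 3 ligands reached percentiles of 56.5, 54.6 and 53.9, just above the median gene. Wnt4, known for kidney and gonad development, had 88 in replicate 1 and 51 in replicate 2. The paralog Wnt7b had 58 and 49, and Wnt5b had 72 and 50. Wnt11, a ligand of convergent extension movements, also gave 72 in replicate 1, with 55 in replicate 2. Wnt9a and Wnt10b were near 80 in replicate 1 (81 and 80) and near 45 in replicate 2 (47 and 45). The lowest signals among ligands open in both replicates were 36 and 32 at Wnt16, 44 and 45 at Wnt6, 46 and 50 at Wnt2b, 47 and 40 at Wnt2, and 58 and 45 at Wnt9b, each given as replicate 1 and then replicate 2. No ligand was past 99 in replicate 1 or 63 in replicate 2.

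The 4 ligands with a start peak in a single replicate had signals there below the median of all genes, 82 in replicate 1 and 53 in replicate 2. The 3 signals of replicate 2 were above the median of its peaks, 8. That of Wnt3a was also above the 32 of Wnt16, a ligand open in both replicates. Wnt3a, a canonical ligand of the dorsal neural tube, had 34 in replicate 2 and 0 in replicate 1, where its nearest peak lay 627 bp away with a signal of 37. Wnt8b, studied mostly in the developing forebrain, had 29 in replicate 2 and 0 in replicate 1, where the nearest peak was 1967 bp away. Wnt10a, known from skin and tooth, had 25 in replicate 2 and 0 in replicate 1, with the nearest peak 3060 bp away. Wnt8a, a ligand of the early embryo, had 6 in replicate 1, from a peak 428 bp off the start, and 0 in replicate 2, where the nearest lay 563 bp away. With a window of 1000 bp, Wnt3a and Wnt8a both counted as open, so their calls rested on where the window ended. No hotspot lay within 500 bp of the Wnt3a, Wnt8a, Wnt8b or Wnt10a starts in replicate 1, while in replicate 2 hotspots of 884, 343, 1066 and 1191 bp did.

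A CpG-rich and a CpG-poor promoter, chosen after their values were seen, are printed as 150 bases before the RefSeq start (GRCm38.p6, the mm10 build), 5′ to 3′ on the gene's strand with each CpG in capitals. Axin2, at percentile 96.0, had 21 CpG and 79.3% G and C in this stretch, and Wnt8b, at percentile 27.0, had 4 CpG and 45.3%. The CpG count did not follow the start percentile at every member, since Wnt3a, at percentile 27.8, had 26 CpG and 87.3% G and C, and Sfrp2, at percentile 76.7, had 5 CpG and 58.7%.
Axin2, chr11:108920199-108920348, plus strand: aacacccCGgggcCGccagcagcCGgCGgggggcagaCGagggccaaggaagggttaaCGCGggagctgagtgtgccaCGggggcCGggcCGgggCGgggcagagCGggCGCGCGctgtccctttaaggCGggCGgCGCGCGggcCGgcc
Wnt8b, chr19:44493322-44493471, plus strand: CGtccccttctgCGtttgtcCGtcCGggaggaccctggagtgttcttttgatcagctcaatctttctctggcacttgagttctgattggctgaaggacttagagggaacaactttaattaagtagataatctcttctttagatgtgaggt

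Across the 45 RefSeq promoter entries matched to 36 members, with the 3 members on chromosome 18 left out and 16 others, Fzd2 and Dkk4 among them, not matched to the table, the median was 12 CpG per 150 bases, from 1 to 30. Over all 32851 RefSeq promoter entries it was 4, from 0 to 37.

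Frizzled receptors, the receptors of Wnt proteins with an extracellular cysteine-rich domain, had a peak in both replicates at 10 of 10 genes. Fzd2, at chr11:102604396-102608058 on the plus strand, had the highest percentile of all members (97.9), with a signal of 140 in replicate 1 and 94 in replicate 2. Fzd4, which also serves the ligand norrin in retinal vessels, had 131 and 86, and Fzd1, a close relative of Fzd2 and Fzd7, had 135 and 76. Fzd3, needed for axon tracts of the brain, gave 119 in replicate 1 and 85 in replicate 2. Fzd5, Fzd7, Fzd8, Fzd9 and Fzd10 ranged from 111 to 128 in replicate 1 and from 64 to 83 in replicate 2. Fzd6, known for planar polarity in skin, was the only Frizzled receptor under the median gene, with 59 and 46, at percentile 44.2. Lrp6 had 120 in replicate 1 and 80 in replicate 2, and its paralog Lrp5 had 66 and 50.

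The cytoplasmic components were the most uniform role. Axin1 (chr17:26138688-26195811, plus strand), a scaffold of the β-catenin destruction complex, had a signal of 133 in replicate 1 and 105 in replicate 2, the highest member value in replicate 2. Axin2, a scaffold that is also a direct target of β-catenin, had 136 and 93. Ctnnb1 gave 125 in replicate 1 and 95 in replicate 2, and Apc, the tumour suppressor that carries β-catenin into the complex, gave 125 and 89. The CpG ratio of Ctnnb1, 0.401, was taken at the 5′ end of the gene annotation, which lies upstream of its protein-coding starts, and the RefSeq starts had 23 and 22 CpG in 150 bases. Among the nuclear factors, Tcf7l2 had 123 and 78, Tcf7l1, mainly a repressor, had 103 and 75, Tcf7 had 91 and 81, and Lef1 had 89 and 67. These 4 did not overlap with the cytoplasmic components in either replicate.

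Secreted inhibitors spread widely. Sfrp2, which binds Wnt proteins through a Frizzled-like domain, had a signal of 124 in replicate 1 and 75 in replicate 2, at percentile 76.7. Wif1, a secreted protein that also binds Wnt ligands, had 90 and 66. Dkk1, which blocks the LRP coreceptors and is needed for head formation, had 85 and 64. Frzb, also called Sfrp3, gave 93 in replicate 1 and 56 in replicate 2, and Sfrp1 gave 90 and 55. Lower values were found for Dkk3 (72 and 51), Sfrp4 (66 and 47), Dkk2 (49 and 45) and Sfrp5 (35 and 45). Dkk4, at chr8:22624043-22627547 on the plus strand, had no peak within 500 bp of its start in either replicate. Its nearest peaks lay 1038 bp away in replicate 1, with a signal of 22, and 6758 bp away in replicate 2, with a signal of 10, and no hotspot lay at its start.

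The R-spondins fell into a pair of higher start signals and a pair of lower ones. Rspo2 had a signal of 75 in replicate 1 and 70 in replicate 2, and Rspo3, needed for placental vessels, had 76 and 60. Rspo1 had 39 and 34, and Rspo4, tied to nail growth in humans, had 45 and 31. Their receptors ran in the order Lgr4 (126 and 66), Lgr5 (94 and 60), which marks stem cells of the gut, and Lgr6 (50 and 29). This order held in both replicates, while Lgr4 and Lgr5 differed by only 6 in replicate 2.

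Several members start from more than 1 promoter. Starts over 500 bp apart were found for 11 members, in 25 groups, of which 21 (84%) had a peak in both replicates, 2 in 1 replicate and 2 in neither. Over the 5289 protein-coding genes with such starts, 42.5% of 11860 groups had a peak in both, with no allowance for CpG content. Tcf7l2 has an internal start 153690 bp downstream of its first start. The internal start had a signal of 111 in replicate 1 and 64 in replicate 2, and the upstream start 123 and 78. Apc has a start 26714 bp downstream with 92 and 42, beside 125 and 89 at its upstream start. The downstream starts of Wnt5a (72 and 50) and Axin2 (47 and 44) were lower than the upstream ones in both replicates. Those of Lef1 (79 and 49) were lower as well, whereas the downstream start of Wnt11 (72 and 55) exceeded its upstream start (45 and 47) in both. The 4 start groups of Wnt7b had from 38 to 58 in replicate 1 and from 36 to 49 in replicate 2. The upstream start of Wnt10b had no peak in replicate 1 and 41 in replicate 2, while the downstream start, 889 bp away, had 80 and 45. The downstream start of Lgr6, 87497 bp away, had only a peak of 10 in replicate 2, and the downstream start of Sfrp4 had none.

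Wnt5b showed an open and a closed start within 1 gene. Its most upstream start, A, had a signal of 48 in replicate 1 and 50 in replicate 2. Start B, 77136 bp downstream, had no peak in either replicate. Start C, 94961 bp downstream of A, had 72 and 40. The 150 bases before each RefSeq start are printed with CpG in capitals, because they differ in CpG content and in openness within 1 gene, followed by the pair of Tcf7l2 starts.
Wnt5b start A, chr6:119544348-119544497, minus strand: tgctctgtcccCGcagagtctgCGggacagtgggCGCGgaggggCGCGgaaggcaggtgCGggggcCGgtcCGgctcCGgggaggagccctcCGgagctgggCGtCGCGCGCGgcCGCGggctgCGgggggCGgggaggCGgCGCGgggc
Wnt5b start B, chr6:119467212-119467361, minus strand: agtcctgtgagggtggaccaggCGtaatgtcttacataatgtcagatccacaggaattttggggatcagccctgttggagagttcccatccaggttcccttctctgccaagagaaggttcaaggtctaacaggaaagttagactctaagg
Wnt5b start C, chr6:119449387-119449536, minus strand: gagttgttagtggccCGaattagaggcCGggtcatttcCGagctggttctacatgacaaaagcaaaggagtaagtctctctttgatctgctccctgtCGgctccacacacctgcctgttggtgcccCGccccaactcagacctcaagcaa
Tcf7l2 upstream start, chr19:55741660-55741809, plus strand: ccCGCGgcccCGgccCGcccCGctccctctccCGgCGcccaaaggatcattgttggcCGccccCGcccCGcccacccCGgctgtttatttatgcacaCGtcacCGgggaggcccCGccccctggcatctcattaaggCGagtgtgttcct
Tcf7l2 internal start, chr19:55895171-55895320, plus strand: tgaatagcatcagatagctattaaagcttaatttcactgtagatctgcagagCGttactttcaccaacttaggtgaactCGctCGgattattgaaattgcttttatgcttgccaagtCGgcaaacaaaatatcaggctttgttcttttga
Start A of Wnt5b held 23 CpG, the closed start B held 1, and start C held 5. The stretch printed for the Tcf7l2 internal start had 4 CpG and 37.3% G and C, while that of its upstream start had 15 CpG and 70.7%. The internal stretch precedes a RefSeq start and ends at base 55895320, while peaks were counted around the GENCODE start at 55895510. For the internal Tcf7l2 start, the CpG count and the signal thus refer to different start positions. Starts of few CpG were open at Wnt5b start C and closed at Wnt5b start B. The TCF and LEF sequence CTTTGAT, on either strand, was present in 2 of 45 member promoters (4.44%), Wnt5b start C and Wnt11, and in 1.8% of all RefSeq promoters.

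The width of open chromatin around the starts also differed by role. The widest hotspot within 500 bp of a TSS had a median width of 1014 bp in replicate 1 and 2393 bp in replicate 2 for members, and 675 and 1132.5 bp in the same replicates for all genes. Genes with no hotspot there counted as 0. Among genes with a start peak in both replicates, the medians were 1187 and 2432 bp for members and 1023 and 1556 bp for all genes. The members thus differed little from open genes in replicate 1. Frizzled receptors had medians of 2400.5 and 4280 bp, and nuclear factors 2011.5 and 3508 bp. Wnt ligands had a narrow median in replicate 1, 451 bp, and a wide one in replicate 2, 2549 bp. The extremes were Fzd10, with 3897 bp in replicate 1 and 9872 bp in replicate 2, and Wnt5a, with 8527 and 3904 bp. Between 500 bp and 2.5 kb from a TSS, members had 98 sites with peaks of both replicates, 1.78 per gene, while all genes had 0.558 per gene. Wnt5a had 8 of these, and Lef1 and Tcf7l2 had 5 each.

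**Figure D3:**
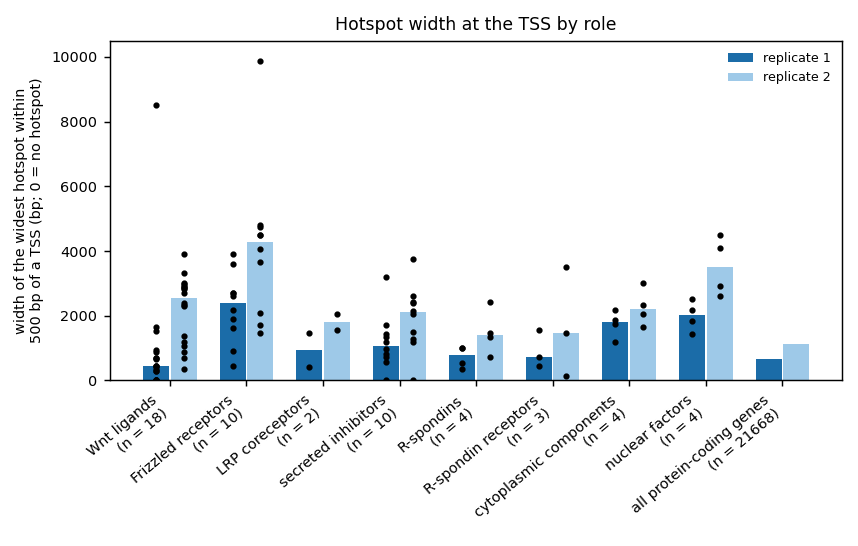
Width of the widest hotspot within 500 bp of a TSS (vertical axis, bp, 0 where there was none), by role and replicate. Bars are medians, starting at 0, and points are single members, with no points drawn for all genes. Frizzled receptors have the widest medians, 2400.5 bp in replicate 1 and 4280 bp in replicate 2, while all genes, including those without a hotspot, have 675 and 1132.5 bp.

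Away from the starts, Wnt pathway genes had many open sites. Peaks of both replicates that overlapped by at least 1 bp were merged into shared sites, of which 44714 were distal, with no protein-coding TSS closer than 2.5 kb and the nearest one within 100 kb. Of these distal shared sites 317 were nearest to a member, 5.76 per member and 2.06 per gene over all genes. At least 1 distal shared site was present at 53 of 55 members (96.4%), and at 56.8% of all genes. At least 10 were present at 9 members (16.4%), and at 3.86% of all genes. Members also had more sequence nearest to them, with a median of 107 kb, while all genes had 41.1 kb. Per 100 kb of that sequence, pooled over genes, there were 5.39 sites for members and 3.18 for all genes. Assignment to the nearest TSS does not show which gene a site acts on.

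Just beyond the limits, the Wnt9a and Fzd2 sites at 2521 and 2545 bp counted as distal and the Fzd8 and Rspo1 sites at 2438 and 2409 bp did not. A Fzd1 site at 99576 bp counted and the next at 100216 bp did not. A further 93 shared sites lay more than 100 kb from the nearest start, which belonged to 19 members. The same counts over all genes are not given here.

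**Figure D4:**
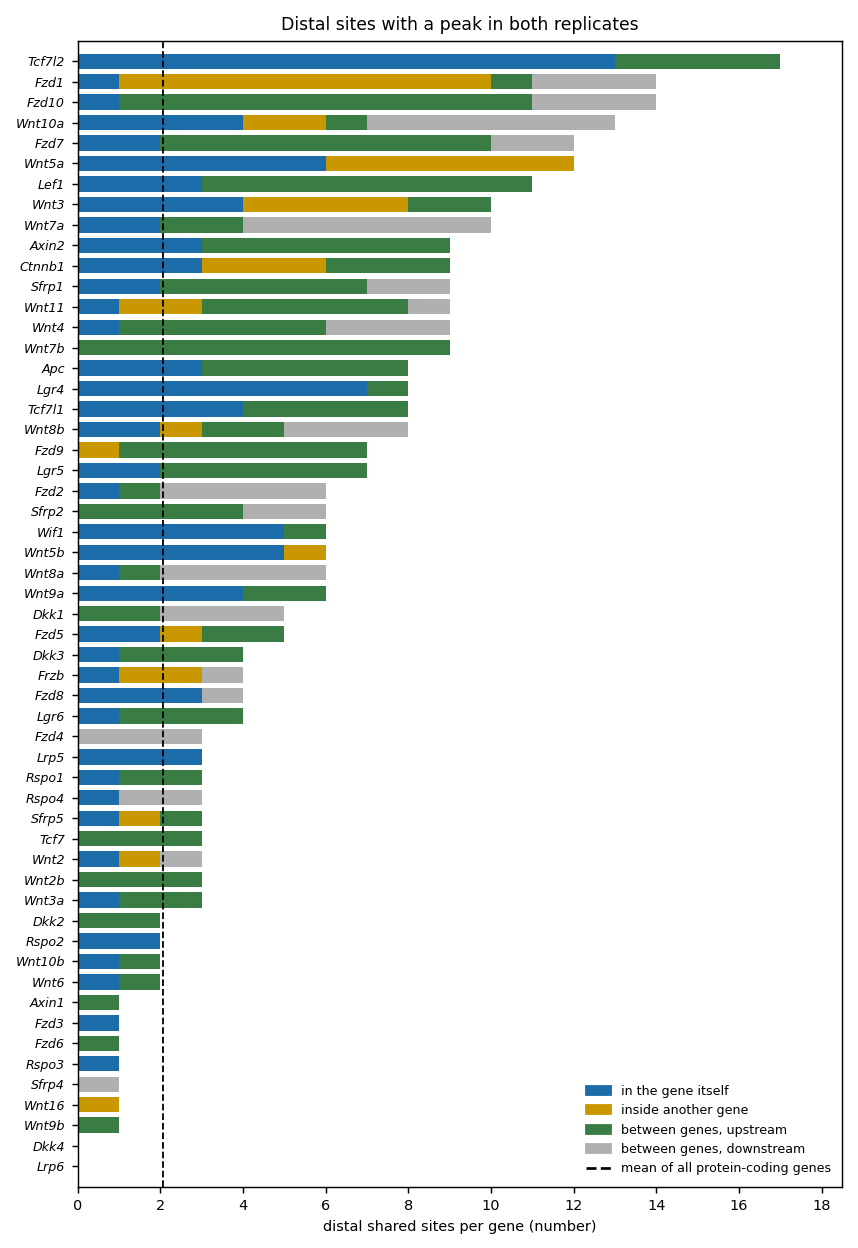
Number of distal shared sites (horizontal axis) nearest to each of the 55 members, from most to fewest, coloured by whether a site lies in the gene itself, inside another gene, or between genes upstream or downstream. The dashed line is the mean of all protein-coding genes, 2.06. Tcf7l2 has the most, 17, of which 13 lie in its own introns, and Dkk4 and Lrp6 have 0.

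Distal sites were unevenly spread over the roles. Nuclear factors had 9.75 per gene, cytoplasmic components 6.75, Frizzled receptors 6.70, R-spondin receptors 6.33, Wnt ligands 6.28, secreted inhibitors 4, R-spondins 2.25 and LRP coreceptors 1.5. Per 100 kb the order changed, with Wnt ligands first at 7.09, then R-spondin receptors at 6.76 and Frizzled receptors at 6.40, and with R-spondins at 1.99 and LRP coreceptors at 1.81. The ligands, whose start signals were the lowest of all roles, thus had the densest distal sites. Across the 55 members the rank correlation of start percentile with the number of distal sites was 0.311, a description over genes that share both libraries. In the list of each replicate alone, members had 12.6 distal sites per gene in replicate 1 and 27.0 in replicate 2, and all genes had 6.36 and 10.3. Across members, the counts of the single lists had a rank correlation of 0.684.

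Tcf7l2, the TCF factor at chr19:55741820-55933654 on the plus strand, had 17 distal shared sites, a number that 0.849% of all genes reached. Of these, 13 lay in its own introns, and the one with the highest signal in replicate 1, 114, and 35 in replicate 2, lay 17829 bp upstream of the internal start. Fzd1 and Fzd10 had 14 each, reached by 1.59% of genes. Of the Fzd1 sites, 9 lay inside the neighbouring gene Cdk14, and 4 of these, from 92156 to 99576 bp upstream of Fzd1, had signals of only 4 to 7 in both replicates. Fzd10 sites lay mostly between genes, 10 of them upstream, the strongest 3803 bp away with 94 and 54. Wnt10a had 13, Fzd7 and Wnt5a 12 each, Lef1 11, and Wnt3 and Wnt7a 10 each. Of the Wnt5a sites 6 lay inside Erc2, and of the Wnt3 sites 4 lay inside Nsf. Axin2, Ctnnb1, Sfrp1, Wnt4, Wnt7b and Wnt11 had 9 each.

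**Figure D5:**
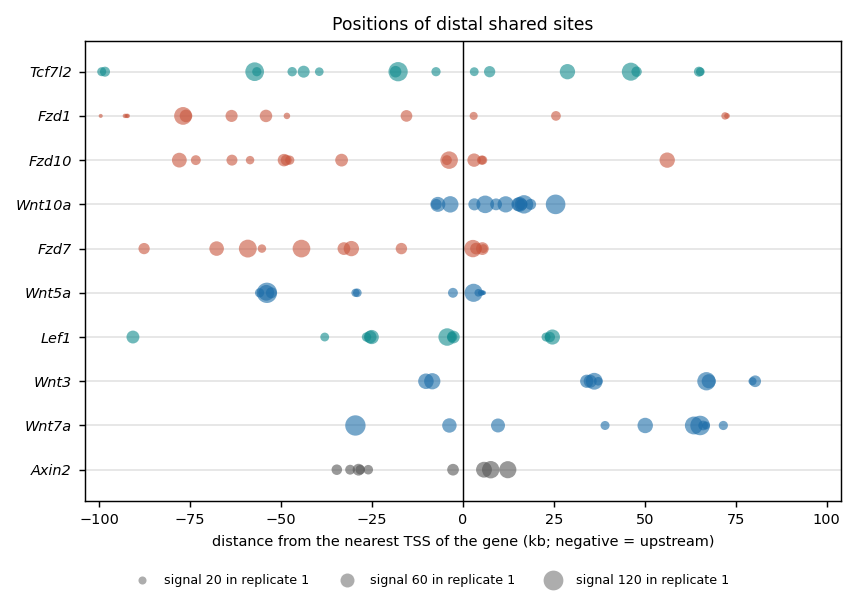
Distance of each distal shared site from the nearest TSS of its gene (horizontal axis, kb, negative upstream) for the 10 members with the most sites (of 6 members tied at 9, Axin2 alone, the first by name), coloured by role, with point area proportional to the replicate 1 signal. Wnt10a sites lie within 25.5 kb of the start, while those of Tcf7l2 and Fzd1 reach 99.3 and 99.6 kb. Wnt7a has its strongest site 29.6 kb upstream.

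Density gave another order. Wnt10a, at chr1:74791516-74804179 on the plus strand, had 13 sites in 36.5 kb, 35.6 per 100 kb, the highest of all members. Wnt10b followed with 25.8 per 100 kb, from only 2 sites in 7.8 kb, and Wnt8a with 19.3, from 6 sites. Wnt9a (16), Fzd2 (15.8), Lgr4 (13.7), Wnt8b (12.5), Wnt6 (12.4), Fzd7 (10.7) and Wnt3 (10.3) made up the first 10 per 100 kb. Of these 10 genes, Wnt10a, Wnt8a and Wnt8b lacked a start peak in both replicates. Wnt10a had start signals of 0 in replicate 1 and 25 in replicate 2, while its distal sites reached 118 and 72 in the same replicates. Wnt8b had 0 and 29 at its start and up to 75 and 42 at its distal sites. Wnt8a had 6 and 0 at its start and up to 80 and 44 at its distal sites. Wnt3a, with 0 and 34 at its start, had an intronic site 26511 bp downstream with 113 and 61. These 4 ligands are those without a start peak in both replicates, and a distal shared site needs a peak in both, so the contrast follows in part from how they were picked. The contrast also sets the highest of several distal sites against a single start. The share of all genes with such a contrast is not given here. Wnt7b, with a peak at its start in both replicates, also had distal sites of higher signal than its starts.

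Some ligands sit side by side. Wnt6 and Wnt10a start 19.6 kb apart on chromosome 1, with 2 and 13 distal shared sites nearest to them and 4 between their starts. Wnt3a and Wnt9a start 16.2 kb apart on chromosome 11, with 3 and 6 sites and 4 between them. Wnt3 and Wnt9b start 24.3 kb apart on chromosome 11, with 10 and 1 sites and 3 between them. Assignment to the nearest start divides the sites of a pair between its genes. Wnt10b starts 11.7 kb from Wnt1, which was outside the list.

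The members at the low end were Lrp6 and Dkk4 with 0 distal shared sites, and Wnt9b, Wnt16, Fzd3, Fzd6, Sfrp4, Rspo3 and Axin1 with 1 each. Lrp6 and Axin1 had start signals of 120 and 133 in replicate 1, so strong starts occurred with few distal sites. In the single lists Lrp6 had 8 distal sites in replicate 1 and 4 in replicate 2, none of them shared. Lgr4 had 8 shared sites, of which 7 lay in its introns, and Lgr5 had 7, of which 5 lay upstream. Lgr6 had 4. Of the inhibitors, Sfrp1 had 9, Sfrp2 and Wif1 6 each, Dkk1 5, Frzb and Dkk3 4 each, Sfrp5 3 and Dkk2 2. Rspo1 and Rspo4 had 3 and Rspo2 had 2. The remaining receptors were Fzd9 with 7, Fzd2 with 6, Fzd5 with 5, Fzd8 with 4, and Fzd4 and Lrp5 with 3. Apc and Tcf7l1 had 8 each, and Tcf7 had 3. Among ligands, Wnt8b had 8, Wnt5b, Wnt8a and Wnt9a had 6, Wnt2, Wnt2b and Wnt3a had 3, and Wnt6 and Wnt10b had 2.

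By position, 129 of the 317 sites (40.7%) lay between genes upstream of the member, 85 (26.8%) in the member's own introns, 51 (16.1%) between genes downstream, 28 (8.83%) in introns of other genes, 17 (5.36%) in exons of the member and 7 (2.21%) in exons of other genes. Their median distance from the start was 25.1 kb, and 23 kb over all distal shared sites. The median signal was 42 in replicate 1 and 24 in replicate 2 for member sites, and 45 and 23 for all distal shared sites. So members had more distal sites per gene than all genes, at distances and signals close to those of all distal sites.

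By summed signal percentile within the replicates, the strongest distal site of all members lay 52.2 kb upstream of Wnt7b, with a signal of 137 in replicate 1 and 92 in replicate 2. The Wnt7b starts themselves had at most 58 in replicate 1 and 49 in replicate 2. Next was a site 29.6 kb upstream of Wnt7a, with 127 and 89, which lay 56 bp from the start of the long noncoding RNA gene 1810044D09Rik. A site 25.5 kb downstream of the Wnt10a start gave 118 and 72, and an intronic site of Fzd3 gave 119 and 72. A site 53.9 kb upstream of Wnt5a, inside Erc2, gave 127 and 49. Within 500 bp of a long noncoding RNA start lay 13 of 317 member sites (4.1%), and 2.86% of all distal shared sites. The Wnt7b and Wnt7a sites are printed (150 bases around the midpoint, mm10, plus strand), chosen after their values were seen as the strongest of all members. Capitals mark the searched sequences ATGCAAAT, GGGCGG and CAGCTG on either strand.
Wnt7b upstream site, chr15:85634576-85634725, plus strand: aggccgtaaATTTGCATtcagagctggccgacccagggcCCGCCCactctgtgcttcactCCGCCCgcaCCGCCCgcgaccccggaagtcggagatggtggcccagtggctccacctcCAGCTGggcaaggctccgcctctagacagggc
Wnt7a upstream site, chr6:91440856-91441005, plus strand: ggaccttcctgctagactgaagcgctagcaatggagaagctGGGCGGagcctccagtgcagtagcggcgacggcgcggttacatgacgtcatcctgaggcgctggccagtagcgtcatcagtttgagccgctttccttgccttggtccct

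The sequence CTTTGAT, the preferred site of TCF and LEF factors, was searched on both strands in the 150 bases around each site's midpoint. It was present in 12 of 317 member sites (3.79%), and in 2.07% of all distal shared sites. The variant CTTTGAA, which shares its first 6 letters, was present in 10 member sites (3.15%), and in 3.41% of all. Either was present in 22 member sites (6.94%) and 5.38% of all. A match is a description of letters and not evidence of binding, and with 12 sites the share moved with the processing. Requiring an overlap of 75 bp between the replicates' peaks gave 2.33% of member sites and 2.01% of all. Of the 12 sites, 5 were among the 40 sites of secreted inhibitors, 2 among 113 of ligands, 2 among 67 of Frizzled receptors, 2 among 39 of nuclear factors and 1 among 19 of R-spondin receptors. The 10 genes with such a site were Wnt5b, Wnt10a, Fzd10, Dkk1, Dkk3, Sfrp1, Wif1, Lgr5, Lef1 and Tcf7l2. The share of all genes with such a site is not given here, and members had more distal sites per gene (5.76) than all genes (2.06). Axin2 had none among its 9 sites, and CTTTGAA in 2 of them.

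Sites that hold these letters are printed as the plus strand of mm10, with CTTTGAT or CTTTGAA on either strand in capitals (ATCAAAG is CTTTGAT on the minus strand), for the members with many sites and, chosen after their values were seen, Dkk3 and the CTTTGAA site of Axin2. The Tcf7l2 site lay 46949 bp upstream of the first start, with a signal of 27 in replicate 1 and 13 in replicate 2. The printed Fzd10 site lay 58523 bp upstream with 22 and 25, and a further Fzd10 site with CTTTGAT lay 47613 bp upstream with 26 and 17. The Lef1 site lay 25500 bp upstream with 49 and 36. The Wnt10a site lay 6115 bp into the gene with 95 and 35. The Dkk3 site lay 21284 bp upstream with 90 and 63, and the Axin2 site lay 12330 bp downstream of a start, in an intron, with 90 and 44.
Tcf7l2 upstream site, chr19:55694796-55694945, plus strand: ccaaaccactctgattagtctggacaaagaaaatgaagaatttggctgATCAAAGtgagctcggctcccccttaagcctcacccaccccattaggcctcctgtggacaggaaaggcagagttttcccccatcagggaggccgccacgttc
Fzd10 upstream site, chr5:128542246-128542395, plus strand: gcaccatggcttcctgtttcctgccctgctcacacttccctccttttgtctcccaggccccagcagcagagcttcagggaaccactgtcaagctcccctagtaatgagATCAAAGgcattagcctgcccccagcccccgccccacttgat
Lef1 upstream site, chr3:131084896-131085045, plus strand: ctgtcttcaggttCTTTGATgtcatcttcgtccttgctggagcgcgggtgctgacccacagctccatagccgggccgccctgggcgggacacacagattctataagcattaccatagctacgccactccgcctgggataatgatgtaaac
Wnt10a intron site, chr1:74797556-74797705, plus strand: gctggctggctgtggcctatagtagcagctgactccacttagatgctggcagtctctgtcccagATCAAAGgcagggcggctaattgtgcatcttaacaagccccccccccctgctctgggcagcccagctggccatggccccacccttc
Dkk3 upstream site, chr7:112180266-112180415, plus strand: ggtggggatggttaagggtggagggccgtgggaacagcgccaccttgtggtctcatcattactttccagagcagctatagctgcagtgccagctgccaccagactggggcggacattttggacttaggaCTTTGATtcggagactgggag
Axin2 intron site, chr11:108935436-108935585, plus strand: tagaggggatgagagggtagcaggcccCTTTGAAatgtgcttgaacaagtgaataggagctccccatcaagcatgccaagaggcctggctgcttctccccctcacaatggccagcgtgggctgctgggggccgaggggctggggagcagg

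Other sequences were searched in the same windows and on both strands. The SOX sequence ACAATGG was present in 3.79% of member sites and 2.96% of all distal shared sites, and the homeodomain sequence TAATTA in 3.79% and 3.07%. The OTX-type sequence TAATCC was present in 5.05% of member sites and 4.48% of all, and the POU sequence ATGCAAAT in 2.52% and 1.28%. The E-box CAGCTG was present in 14.5% of both sets, whereas the E-box CATCTG was present in 9.46% of member sites and 14.7% of all. GGGCGG was present in 13.9% of member sites and 9.27% of all, and CCAAT in 13.2% and 17.7%. Member sites had a mean G and C content of 53.7%, and all distal shared sites 51.9%, and the part of base composition in these shares was not tested.

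The wider pathway was read from 54 further genes, such as Wls and Porcn for Wnt secretion, Dvl genes for signal relay, and Ror, Vangl, Celsr and Prickle genes of the planar polarity branch. A start peak in both replicates was present at 52 of 54 (96.3%), with median signals of 114 and 72 in replicates 1 and 2 and a median percentile of 73.0. The exceptions were Sost, a secreted inhibitor best known from bone, and Sp8, a zinc finger factor of limb and brain patterning. Sost had 25 in replicate 1 and 0 in replicate 2, where a peak of 20 lay just past the window. Sp8 had 0 in replicate 1, with the nearest peak 747 bp away at 95, and 18 in replicate 2. With a window of 1000 bp, or hotspots in place of peaks, all 54 counted as open. The calls of Sost and Sp8 thus rested on where the window ended. The count was 44 with a 150 bp window and 48 where the replicates' peaks had to overlap. Of the 54 genes, 41 had a CpG ratio of at least 0.6. A start peak in both replicates was present at 65.5% of all genes and at 97.3% of all genes of that ratio, whose median signals were 119 and 75. The 54 genes had 285 distal shared sites, 5.28 per gene. The most were found at Tle3 (31), a corepressor that binds TCF factors, Btrc (22), part of the ubiquitin ligase that marks β-catenin, Nkd1 (15), a feedback inhibitor, Prickle2 (13), and Ror2 and Tle4 (11 each).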

How the data were processed

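DNase-seq peaks and hotspots of 2 replicates of 1 group were used as deposited on mm10, made from each replicate's own alignments, per the file records. Which aligner, caller and filters were used is not given in the sources used here. Each peak's deposited signal has no stated normalization and served only to describe or rank peaks within a list. The deposited hotspot q-value is on a −log10 scale, and the deposited hotspot score was not used.

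Peaks on chromosomes 1 to 19 and X were read against GENCODE vM21 basic protein-coding transcripts and GRCm38.p6, with duplicate intervals counted once. A start was called open if both replicates had a peak no more than 500 bp from any TSS of the gene. Overlapping peaks (at least 1 bp) were merged, and distal shared sites lay more than 2.5 kb from every TSS and within 100 kb of the nearest. Start signals were ranked among all 21668 genes within each replicate. Promoter sequences came from the RefSeq table for GRCm38.p6. Python 3.11.15, numpy 2.4.6, scipy 1.17.1 and pysam 0.24.0 were used, and the overlap and assignment steps were tested on simulated data. No significance test was made, because there was 1 group and no control. Read depth is unknown, so no interval on a share is given.

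The members and lists were chosen with earlier results of these data known. The genes described were, in each role, the 3 with the highest start percentile and the 3 with the most distal sites, all members without a start peak in both replicates, and the 10 densest in distal sites. Alternatives were other windows, overlaps, distance limits, the stronger 50% of peaks, hotspots, and each replicate alone.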

Additional observations from a re-analysis of the deposited data

How the results depend on the processing

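Of 91 alternative values, 82 kept within the limits set for them and 9 moved. For counts, the limit was a ratio to the main value, and the fall from 50 to 44 open members kept within it. Most of the 91 values were counts of open starts, several already at every gene of a role. The tally thus says little about how firm the results are. A change of direction was not assessed. For the median percentile and the CTTTGAT share, the limit was the SD of the single-replicate values, which are themselves among the alternatives. Members with an open start numbered 50, and from 44 (150 bp window, without Wnt4, Wnt6, Wnt7a, Fzd8, Lrp5 and Dkk1) to 52 (1000 bp window, with Wnt3a and Wnt8a) under the other settings that used both replicates, and 51 to 53 with 1 replicate left out. The share of all genes, 65.5%, was 59.1% with the 150 bp window and 67.2% with the 1000 bp window. It was 62.3% where the replicates' peaks had to overlap, 68% without replicate 2 and 69.5% without replicate 1. The count of open LRP coreceptors fell to 1 of 2, Lrp6, with the 150 bp window and when the replicates' peaks had to overlap, since Lrp5 dropped out of both. Distal shared sites of members, 317 with both replicates, numbered from 694 to 1485 in a single replicate's list, because sites need no partner there, and the ratio of the member mean to the mean of all genes ranged from 1.98 to 2.95 around 2.79. The share of member sites with CTTTGAT, 3.79% beside 2.07% of all distal shared sites, moved to 2.33% (all sites 2.01%) with a 75 bp overlap, to 4.56% (2.11%) beyond 5 kb, to 5.99% (3.72%) in 250 bp windows and to 6.94% (5.38%) with CTTTGAA included. It was 2.88% (2.46%) without replicate 2 and 3.64% (2.57%) without replicate 1, so with the 75 bp overlap or replicate 1 alone it lay near that of all sites. The cause was not tested. The median start percentile, 53.3, ranged from 50.9 to 56.2 with 1 replicate left out, and open start groups, 21, numbered 18 where starts had to lie over 1000 bp apart and 21 to 23 with 1 replicate left out. The single-replicate values of these measures were chosen after seeing the data. No paired analysis was possible because there was 1 group. Unknown read depth limits what a missing peak shows.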
